A study of Homo sapiens with 4 samples.

Results

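The genes described here are 10 genes of fatty acid synthesis and desaturation, a list of names whose rule uses no measured value: ACLY, ACSS2, ACACA, FASN, ELOVL6, SCD, ELOVL5, FADS2, FADS1 and SREBF1. They are 10 of the 58735 genes in the data, and all 10 were among the 12949 genes whose FPKM averaged 1 or more over the libraries. The list was chosen with earlier results of these data known. The cells were U251 and U87, both established human glioblastoma lines, and their RNA was sequenced from a Control culture and from one treated with Bru (brusatol, a compound from the seeds of a Brucea plant) at its IC50 for 48 h. Each line and condition has 1 library, so there are 4 libraries in all and no replicate. The concentration in each line and what the Control cultures received are not stated for the sequenced cells, and both lines were grown in the same serum-supplemented medium. In both lines every one of the 10 genes was lower in the Bru library than in the Control library. Of the 12949 genes, 52.1% were lower in Bru in U251 and 56.7% in U87. SCD and FADS2 were lower by more than 3-fold in each line.

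Cells build saturated fatty acids in the cytosol from acetyl-CoA. ACLY makes acetyl-CoA from citrate and ACSS2 makes it from acetate, ACACA turns it into malonyl-CoA, and FASN joins these units into palmitate. ELOVL6 lengthens palmitate, SCD puts the first double bond into saturated chains, and FADS2, FADS1 and ELOVL5 desaturate and lengthen polyunsaturated chains taken up from outside. SREBF1 encodes the sterol regulatory element binding protein that drives transcription of many of these genes, after it has been escorted out of the endoplasmic reticulum by SCAP and cut by proteases, a step that INSIG proteins hold back. In glioblastoma this pathway is known as a route by which growth factor signalling feeds membrane synthesis.

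The values are FPKM, fragments scaled to gene length and library size. For each gene described here that length is all of its annotated exonic bases, such as 10230 for FADS1 and 11026 for FADS2. Comparisons of level between different genes therefore depend on the annotation. The length of the transcripts present in these cells was not tested. Ratios of 1 gene between libraries use the same length on both sides. Whole reads could be recovered from the FPKM, and 17083896 to 21453561 reads per library fell on genes. Ratios of Bru to Control are log2 ratios of FPKM + 0.1, and a gene is counted as lower or higher past 2-fold under -1 or above 1. The intervals are 95% exact (Clopper-Pearson) intervals of the ratio without the 0.1, from the recovered reads. They cover counting error only. With 1 library per group no p-value can be given, and how far 2 cultures of the same kind would differ is unknown. Among markers of the labelled cells, VIM was at an FPKM of 606 to 701 and CD44 at 94.5 to 125 in all libraries, whereas SOX2 was at 129 and 91.2 in U251 Control and Bru and at 0 and 0.05 in U87, and NES was at 125 and 50.6 in U251 and at most 1.46 in U87. GFAP, S100B and OLIG2 did not exceed 2.42 in any library. Each of the markers of leukocytes, endothelium, epithelium, adipocytes and hepatocytes, 12 genes in all, was at or under an FPKM of 0.66 in every library.

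The first question was how the enzymes that supply and join the carbon units differed between Control and Bru. All were lower in the Bru library of both lines, with a step from the small ratios of ACLY and ACSS2 to those of ACACA and FASN. ACLY (ENSG00000131473, chromosome 17 of GRCh38 from 41866908 to 41930542, minus strand) had FPKM values of 100.4 (Control) and 68.3 (Bru) in U251 and of 108.6 and 92.7 in U87. Its log2 ratio was -0.55 in U251 (interval -0.60 to -0.51) and -0.23 in U87 (-0.27 to -0.19). ACSS2 (ENSG00000131069, chromosome 20 from 34872146 to 34927962, plus strand) was at 5.61 and 3.86 in U251 and at 15.4 and 11.9 in U87, Control again before Bru. The acetate-using enzyme thus had the lowest FPKM of the 10 genes in U251 Control and was higher in both U87 libraries than in either U251 library. For ACSS2 the log2 ratio was -0.53 in U251 (-0.73 to -0.36) and -0.37 in U87 (-0.48 to -0.26).

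ACACA (ENSG00000278540, chromosome 17 from 37084988 to 37406818, minus strand), the carboxylase of the committed step, had FPKM values of 18.8 and 9.21 in U251 and of 10.5 and 6.79 in U87. Its log2 ratio of -1.02 in U251 lay at the 2-fold limit, with an interval of -1.10 to -0.96 on both sides of it. In U87 its log2 ratio was -0.62 (-0.72 to -0.53). FASN (ENSG00000169710, chromosome 17 from 82078333 to 82098332, minus strand) was at 99.9 in Control and 35.1 in Bru cells of U251, which gave a log2 ratio of -1.50 (-1.55 to -1.47). In U87 FASN was at 46.9 in Control and 23.4 in Bru, and its log2 ratio of -0.997 lay just short of 2-fold on FPKM + 0.1, with an interval of -1.06 to -0.94. FASN was thus at 35.2% of its Control level in U251 after Bru.

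**Figure D1:**
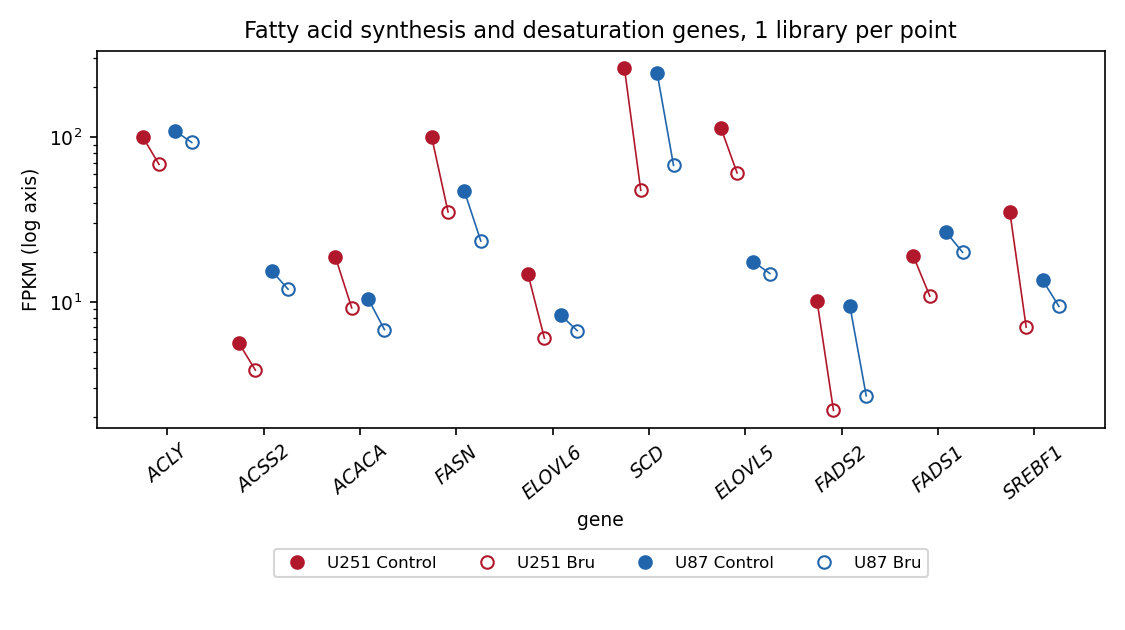
FPKM on a log axis of the 10 genes, ordered from carbon supply to desaturation with the regulator last. Filled points are Control and open points Bru libraries, red is U251 and blue is U87, and every line from filled to open point runs down, steepest for SCD, FADS2 and, in U251, SREBF1.

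Among the desaturases, SCD and FADS2 had the log2 ratios furthest from 0 of all the enzymes, in both lines. SCD (ENSG00000099194, chromosome 10 from 100347124 to 100364834, plus strand), which makes monounsaturated chains, had FPKM values of 263 and 47.6 in U251 and of 244 and 67.4 in U87. It had the highest level of the 10 genes in both Control libraries, at nearly the same height in the 2 lines. SCD was 5.53-fold lower in U251 Bru, a log2 ratio of -2.46 (-2.51 to -2.42), and 3.63-fold lower in U87 Bru, a log2 ratio of -1.86 (-1.90 to -1.82). Ordered from the lowest log2 ratio, SCD was number 51 of the 12949 genes in U251 and number 54 in U87. The reads behind it numbered 29567 and 4726 in U251 and 23667 and 6288 in U87. Of its 50-base stretches, 4.42% also occur in other annotated genes, one of which is the pseudogene SCDP1 with at most 2 reads in any library.

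FADS2 (ENSG00000134824, chromosome 11 from 61792980 to 61867354, plus strand), which opens the polyunsaturated route, had far lower FPKM values, of 10.1 and 2.20 in U251 and of 9.48 and 2.69 in U87. Here too the Control levels of the lines lay close together, and the Bru libraries held its lowest levels. The log2 ratio of FADS2 was -2.15 in U251 (-2.35 to -2.05) and -1.78 in U87 (-1.96 to -1.67). FADS1 (ENSG00000149485, chromosome 11 from 61799625 to 61829318, minus strand), the neighbouring desaturase that acts later in the same route, was at 18.9 and 10.8 in U251 and at 26.5 and 20.0 in U87. The log2 ratio of FADS1 was only -0.80 in U251 (-0.88 to -0.72) and -0.40 in U87 (-0.47 to -0.34). The FPKM of FADS1 was 1.87 times that of FADS2 in U251 Control and 4.94 times in U251 Bru. For U87 the same quotient was 2.79 in Control and 7.43 in Bru. The annotated exons of these 2 genes share 490 bases on opposite strands, which is 4.79% of FADS1 and 4.44% of FADS2, and whether the counting used strand is not given in the sources used here. Adding up the reads of both genes gave a log2 ratio of -1.17 in U251 but of -0.68, inside 2-fold, for U87. FADS2 also shares 49 exonic bases with FEN1, which lies on the same strand. FEN1 was at 69.1 and 34.1 in U251 and at 76.3 and 63.9 in U87 (log2 ratios -1.02 and -0.26). The part of FEN1 reads in the FADS2 values was not tested.

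SCD and FADS2 were the members lower past 2-fold in both lines, and their promoters are shown for that reason. The sequences are from RefSeq on GRCh38.p14, are 300 bases long, around a RefSeq start site, and are written 5′ to 3′ on the gene's strand. The SCD window lies on the plus strand at chr10:100346983-100347282 and the FADS2 window on the plus strand at chr11:61816154-61816453. Capitals mark the letters of a CCAAT box (CCAAT, or ATTGG for the other strand), the motif bound by the factor NF-Y.
SCD: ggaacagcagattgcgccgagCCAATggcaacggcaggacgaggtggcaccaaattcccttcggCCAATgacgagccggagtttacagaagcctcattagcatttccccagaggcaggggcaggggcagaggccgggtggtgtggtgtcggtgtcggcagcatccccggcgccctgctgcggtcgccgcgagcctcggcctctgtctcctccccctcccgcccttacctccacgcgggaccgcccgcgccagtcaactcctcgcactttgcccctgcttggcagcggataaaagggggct
FADS2: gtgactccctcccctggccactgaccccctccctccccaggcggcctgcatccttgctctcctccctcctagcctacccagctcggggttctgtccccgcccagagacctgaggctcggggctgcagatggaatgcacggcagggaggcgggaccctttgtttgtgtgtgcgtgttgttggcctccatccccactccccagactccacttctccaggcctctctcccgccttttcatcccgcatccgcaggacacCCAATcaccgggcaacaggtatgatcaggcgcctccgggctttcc
In the SCD window CCAAT starts 229 and 186 bases before the RefSeq start site. In the FADS2 window it starts at position 6, with the start site as position 1. A second RefSeq start of FADS2 lies upstream, and its window holds no CCAAT. The start of the principal FADS2 transcript in GENCODE 29 lies 11357 bases from the start used for the sequence shown, so that this window may not be the one used in these cells. For SCD the GENCODE 29 start lies 109 bases upstream of the RefSeq start, so its CCAAT distances hold for the RefSeq start only. RefSeq gave 14 windows for 9 of the 10 genes, and FASN had no entry. CCAAT in either direction occurred in 8 of the 14, belonging to ACACA, ACLY, ACSS2, ELOVL5, FADS2 and SCD, against 34.6% of 35116 windows of all genes. The start of the ACSS2 window with a match lies 1446 bases from the principal GENCODE 29 start. For an ACACA window with matches this distance is 59349 bases. The ACLY windows overlap and hold the same sites, so the count of 8 is description only. The letters TCACNCCAC, searched on both strands for the sterol regulatory element, occurred in 0 of the 14 windows, and in 1.13% of all windows. At so low a share, 0 of 14 does not show that the element is missing. Other spellings of it were not searched. Windows of the same gene overlap in part, and these matches are letters in a window, not measured binding.

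Both elongases were lower in Bru, by much more in U251 than in U87. ELOVL6 (ENSG00000170522, chromosome 4 from 110045846 to 110199199, minus strand), which lengthens saturated chains, had FPKM values of 14.7 and 6.02 in U251 and of 8.31 and 6.70 in U87. These gave log2 ratios of -1.27 in U251 (-1.41 to -1.17) and of -0.31 in U87 (-0.44 to -0.18). ELOVL5 (ENSG00000012660, chromosome 6 from 53267398 to 53349179, minus strand), which lengthens polyunsaturated chains, was at 114 and 60.6 in U251 and at 17.5 and 14.9 in U87. The 2 U251 libraries thus stood well above the 2 U87 libraries for ELOVL5, with or without Bru. Its log2 ratio was -0.91 in U251 (-0.97 to -0.86) and -0.23 in U87 (-0.36 to -0.11).

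SREBF1 (ENSG00000072310, chromosome 17 from 17810399 to 17837002, minus strand), the regulator, had FPKM values of 35.3 and 7.04 in U251 and of 13.6 and 9.40 in U87. The U251 Control library held the highest of these values and the U251 Bru library the lowest, with both U87 values between them. Its log2 ratio was -2.31 in U251 (-2.42 to -2.23), number 64 from the lowest of all genes, and -0.53 in U87 (-0.63 to -0.43), number 750. SREBF1 shares 556 exonic bases, 6.92% of its length, with RAI1 on the opposite strand. RAI1 itself was at 10.2 and 8.15 in U251 and at 7.67 and 7.29 in U87, so its levels differed far less between the libraries.

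**Figure D2:**
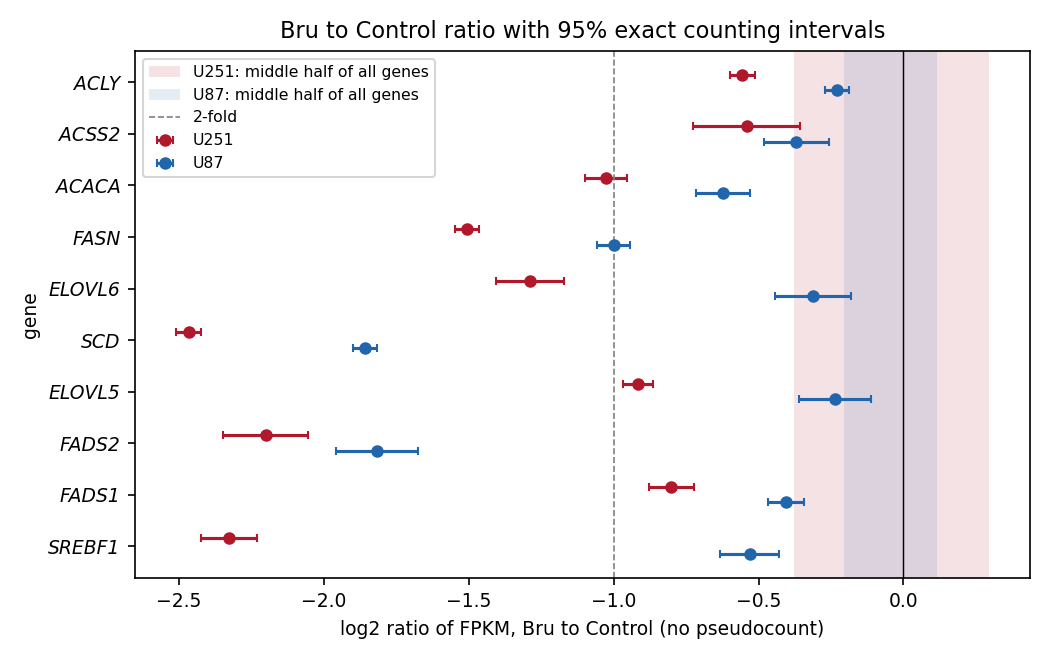
Log2 ratio of FPKM, Bru to Control without a pseudocount, of each gene with its 95% exact counting interval, U251 in red and U87 in blue. The shaded bands span the quartiles of all genes that passed the filter, -0.38 to 0.30 in U251 and -0.20 to 0.12 in U87, and each U251 point lies left of the U87 point of the same gene.

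As a group, 6 of the 10 genes were lower past 2-fold in U251 (SCD, SREBF1, FADS2, FASN, ELOVL6 and ACACA) and 0 were higher. Over all 12949 genes, 5.44% were lower and 3.36% were higher past 2-fold in U251. In U87, SCD and FADS2, 2 of the 10 genes, were lower past 2-fold and 0 were higher, where 1.41% of all genes were lower and 1.92% higher. Both were also among the U251 genes, and 0.517% of all genes were lower past 2-fold in both lines. The median log2 ratio of the 10 genes was -1.15 in U251, where that of all genes was -0.03, and -0.46 in U87, where that of all genes was -0.04. Each of the 10 lay at or under the lower quartile of all genes in U251, and the same 10 did so in U87. Since the 10 genes were chosen with earlier results of these data known, these comparisons with all genes are description only. The counts turn on genes at the limit: ACACA in U251 kept its 2-fold call under 2 of the 8 settings of pseudocount and scaling, the one used here included, and FASN in U87 gained one under 2 of the 8, so that the U251 count was 5 or 6 and the U87 count 2 or 3. Since RNA of whole cultures was measured, fewer cells with a transcript and less transcript per cell cannot be told apart.

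Of all reads on genes in U251, those on the 10 genes made up 0.418% in Control and 0.161% in Bru. In U87 they made up 0.311% in Control and 0.166% in Bru. Their summed FPKM was 681 in Control and 250.8 in Bru cells of U251, and 501 and 256 in those of U87, so that the lines differed in Control and were nearly level in Bru. SCD had the highest FPKM of the 10 in both Control libraries, and ACLY had the highest in both Bru libraries. SCD stood at 2.63 times the FPKM of FASN in U251 Control and at 1.35 times in U251 Bru, and at 5.21 and 2.88 times in U87.

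**Figure D3:**
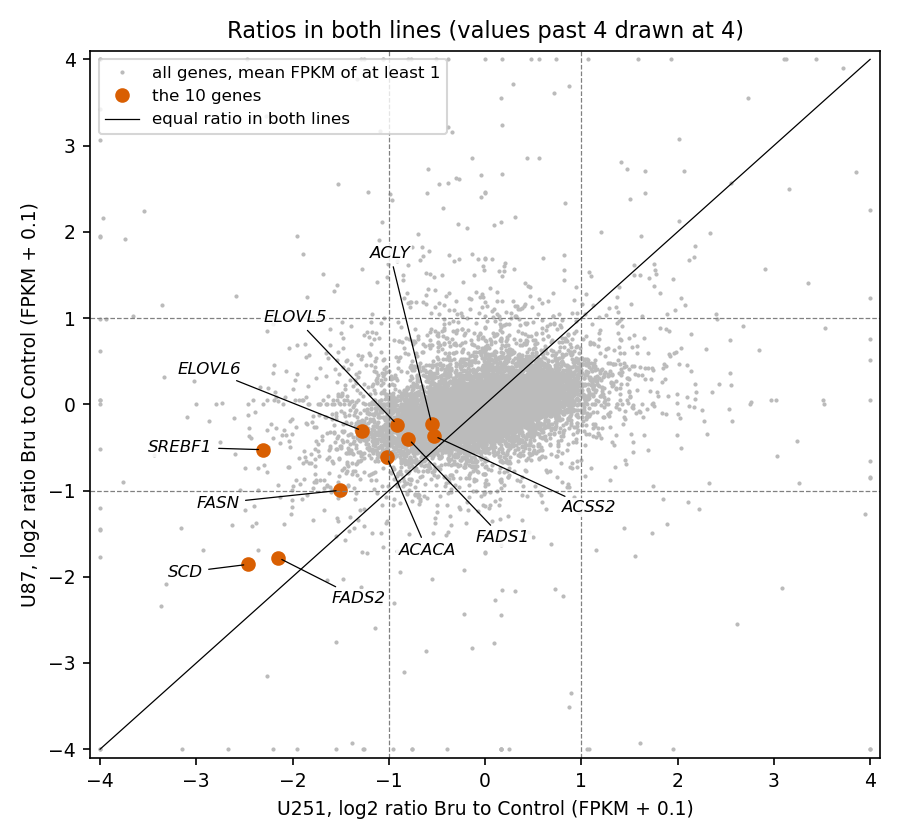
Log2 ratio Bru to Control on FPKM + 0.1 in U251 (x axis) and in U87 (y axis) for all 12949 genes (grey) and the 10 genes (orange), with dashed lines at 2-fold. All 10 lie left of 0 and below 0, left of the line of equal ratios, and SCD and FADS2 are the orange points past 2-fold on both axes.

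The design also allows the 2 lines to be compared for their ratios, with an exact conditional interval of the odds ratio that covers counting error only. The concentration of Bru in each line is not stated for the sequenced cells. In the paper's time course of viability it was higher in U251 than in U87. A difference between the lines and one in concentration therefore cannot be told apart here. In each of the 10 genes the log2 ratio was lower in U251 than in U87 (median difference -0.46), while 49.1% of all genes had a lower ratio in U251. The difference, U251 minus U87, was largest for SREBF1, at -1.78 (-1.94 to -1.66). It was the only one of the 10 under -1, where 5.11% of all genes lay. ELOVL6 followed with -0.97 (-1.15 to -0.80), ELOVL5 with -0.68 (-0.81 to -0.55) and SCD with -0.61 (-0.67 to -0.55). For FASN the difference was -0.51 (-0.58 to -0.44) and for ACACA -0.40 (-0.52 to -0.29). FADS1 had a difference of -0.39 (-0.50 to -0.30), FADS2 one of -0.37 (-0.59 to -0.18) and ACLY one of -0.33 (-0.39 to -0.27). ACSS2 had the smallest difference, -0.16, and its interval of -0.39 to 0.05 held 0. All genes with a Bru to Control ratio were also spread more widely in U251, with quartiles of -0.38 and 0.30 against -0.20 and 0.12 in U87. The part of this wider spread in the differences was not tested.

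In the Control libraries, the lines differed most in ELOVL5, SREBF1, FASN and ACSS2. ELOVL5 was 6.52-fold higher in U251 Control than in U87 Control, a log2 ratio of U87 to U251 of -2.70 (-2.79 to -2.62). SREBF1 was 2.60-fold higher in U251, a log2 ratio of -1.37 (-1.45 to -1.30), and FASN 2.13-fold higher, a log2 ratio of -1.09 (-1.13 to -1.05). ACSS2 was 2.75-fold higher in U87, a log2 ratio of 1.44 (1.32 to 1.59). These were the 3 genes under -1 and the 1 gene above 1 among the 10, where 16.0% of all genes lay under -1 and 14.5% above 1. SCD, FADS2 and ACLY had log2 ratios of -0.11, -0.09 and 0.11 and so differed little between the untreated lines.

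In the Bru libraries the order of the lines changed for several genes. The log2 ratio of U87 to U251 was below 0 for 7 of the 10 genes in Control and for 3 in Bru, and its median went from -0.46 to 0.35. Of all 12949 genes, 6527 were below 0 in Control and 6640 in Bru. SREBF1 went from -1.37 in Control to 0.41 in Bru (0.30 to 0.54), ELOVL6 from -0.82 to 0.15 (0.01 to 0.30), SCD from -0.11 to 0.50 (0.45 to 0.56) and FADS2 from -0.09 to 0.28 (0.11 to 0.48). These 4 genes were thus lower in U87 than in U251 in Control and higher in U87 in Bru. Close to 0 were the Control interval of FADS2 (-0.18 to -0.003) and the Bru interval of ELOVL6. Other scalings were not tried for the ratio of U87 to U251. ELOVL5 kept its much lower level in U87, at -2.02, and ACSS2 its higher one, at 1.60. These values rest on the same 4 libraries as the ratios of Bru to Control and restate them from the other side.

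**Figure D4:**
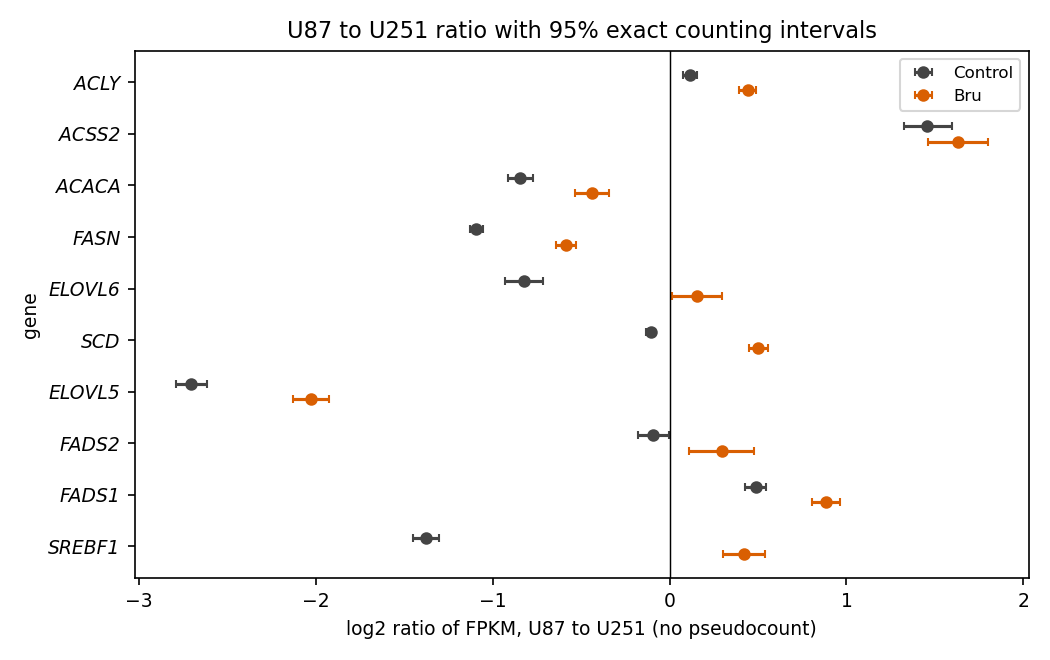
Log2 ratio of FPKM, U87 to U251 without a pseudocount, of each gene in the Control libraries (grey) and in the Bru libraries (orange) with 95% exact counting intervals. Every orange point lies right of the grey point of its gene, and for SREBF1, ELOVL6, SCD and FADS2 the points lie on different sides of 0.

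Genes around the pathway were read from 9 lists that hold none of the 10 genes, with 118 genes in all, of which 97 passed the filter. Of these 97, 8 (8.25%) were lower and 3 higher past 2-fold in U251, and 1 was lower and 0 were higher in U87. Over all genes, 5.44% were lower and 3.36% higher in U251 and 1.41% and 1.92% in U87. The shares of the related genes past 2-fold thus lay near those of all genes. Their median log2 ratio was lower, at -0.20 in U251 and -0.15 in U87, where that of all genes was -0.03 and -0.04. With a pseudocount of 1 in place of 0.1, 7 of the 97 were lower and 0 higher in U251. The gene lower past 2-fold in both lines was INSIG1, which retains the SREBP escort in the endoplasmic reticulum and is itself a known SREBP target. INSIG1 had FPKM values of 45.9 and 10.7 in U251 and of 59.6 and 22.7 in U87, with log2 ratios of -2.09 (-2.22 to -1.98) and -1.39 (-1.48 to -1.30).

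Within the list of SREBP and LXR control, 15 of 17 genes passed the filter and their log2 ratios had medians of -0.06 (U251) and -0.12 (U87). The list as a whole thus stood near the median of all genes, while 3 of its genes were lower past 2-fold in U251. Beside INSIG1, these were SREBF2, the sister gene of SREBF1 that serves cholesterol synthesis, and MBTPS1, the first of the proteases that release SREBP. SREBF2 was at 40.9 and 15.2 in U251 and at 14.9 and 7.75 in U87 (log2 ratios -1.42 and -0.93). MBTPS1 was at 15.5 and 6.04 and at 11.1 and 6.81 (-1.34 and -0.69). The cholesterol exporter ABCA1, a target of LXR, was the 1 gene of the list higher past 2-fold in U251, at 0.99 and 2.63, against 4.87 and 6.75 in U87 (1.33 and 0.46), and its U251 ratio was 0.87 with a pseudocount of 1. SREBF1 stood at 0.86 times the FPKM of SREBF2 in U251 Control and 0.46 times in U251 Bru, but at 0.91 and 1.21 times in U87.

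Among the other desaturases and their electron donors, 7 of 9 genes passed the filter, and the median was -0.64 in U251 and -0.21 in U87. All 7 had a log2 ratio below 0 in both lines, against 52.1% of all genes in U251 and 56.7% in U87. That count rests in part on ratios close to 0, whose intervals held 0. These were CYB5R1 in U251 at -0.02 (-0.17 to 0.12) and FADS3 in U87 at -0.01 (-0.09 to 0.07). Both lay above the median of all genes in that line, -0.03 in U251 and -0.04 in U87. SCD5, the second stearoyl-CoA desaturase of humans, had FPKM values of 16.6 and 7.58 in U251 and of 4.69 and 4.04 in U87, with log2 ratios of -1.12 (-1.27 to -0.99) and -0.21 (-0.44 to 0.01). SCD exceeded SCD5 by 15.9 times in U251 Control and 52.0 times in U87 Control, and by 6.27 and 16.7 times in Bru. The reductase CYB5R3, which passes electrons to these enzymes, had log2 ratios of -0.85 and -0.36, and its partner CYB5A had -0.54 and -0.46. In the remaining elongation cycle, 9 of 11 genes passed, with medians of -0.31 and -0.07. ELOVL2 was at 3.36 in Control and 0.88 in Bru cells of U251 (log2 ratio -1.83) and had no read in U87. HACD3 and TECR, which act in later steps of each elongation round, had -0.40 and -0.37 in U251 and -0.13 and -0.13 in U87.

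**Figure D5:**
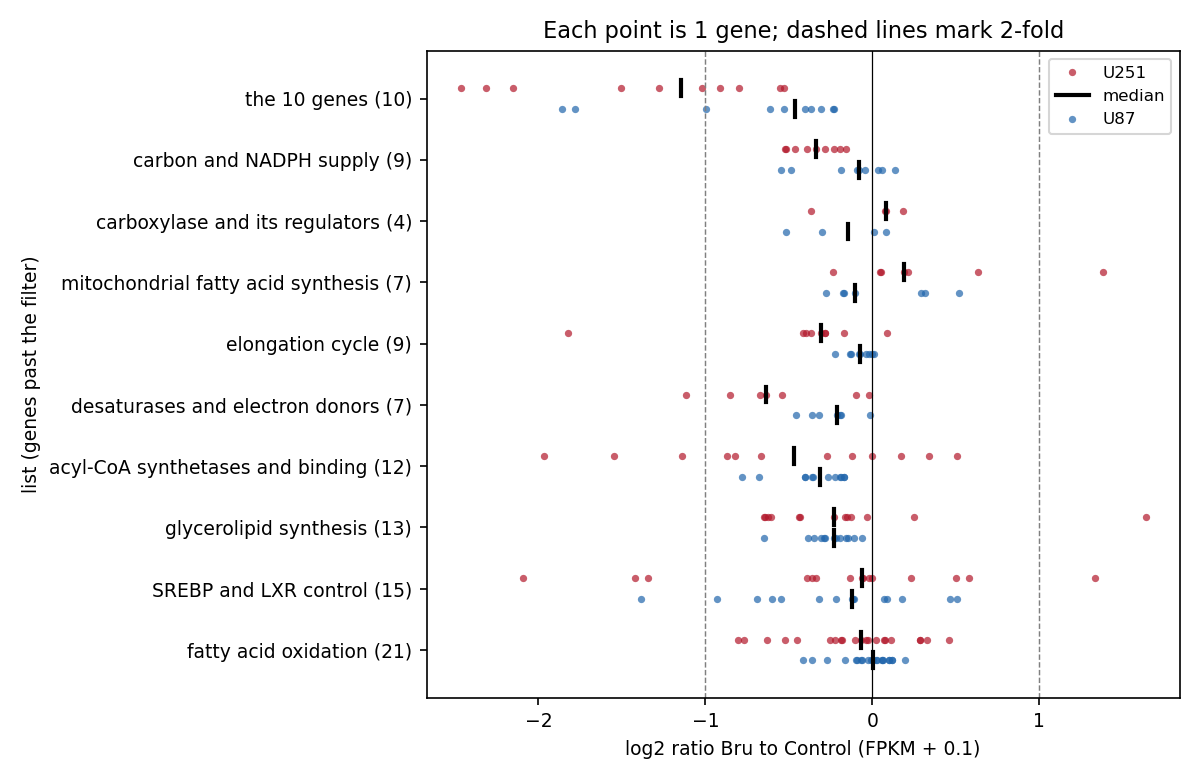
Log2 ratio Bru to Control on FPKM + 0.1 of the genes past the filter in the 10 genes and in 9 related lists, U251 in red and U87 in blue, with black bars at the medians and dashed lines at 2-fold. The 10 genes have the lowest median in both lines, -1.15 and -0.46, and the fatty acid oxidation genes lie around 0, at -0.07 and 0.00.

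Genes that activate, carry and store the products differed among themselves. Of the acyl-CoA synthetases and fatty acid binding proteins, 12 of 15 passed the filter. Below 0 were 8 of them in U251 and all 12 in U87, against 52.1% and 56.7% of all genes. The medians of this list were -0.47 and -0.31, and 3 genes were lower past 2-fold in U251. Some of the 12 passed through the other line, such as FABP5, which had 0 reads in U251. With a mean FPKM of at least 1 asked of the line itself, 9 genes had a median of -0.67 in U251 and 11 one of -0.35 in U87. The 3 genes lower past 2-fold in U251 were the transporter SLC27A1 (log2 ratio -1.55), the brain fatty acid binding protein FABP7 (-1.97) and FABP3 (-1.14). FABP3, at 1.39 and 0.58 in U251, passed through U87. With the minimum asked of U251 itself, 2 genes were past 2-fold. In U251 the FPKM of FABP7 was 8.27 in Control and 2.04 in Bru. It was at or under 0.02 in U87, where its ratio rests on 1 read in Control and 0 in Bru. The interval of FABP3 was wide, from -2.41 to -0.23, and its ratio was -0.60 with a pseudocount of 1. For glycerolipid synthesis, 13 of 16 genes passed, and the median was -0.23 in both lines. Below 0 were 11 of the 13 in U251 and all 13 in U87, again against 52.1% and 56.7% of all genes. AGPAT2 passed through U251, and its U87 ratio rests on 1 read in Control and 0 in Bru. AGPAT1 and AGPAT4, which add the second acyl chain, had -0.64 and -0.61 in U251 and -0.28 and -0.31 in U87. DGAT2, which makes triglycerides, passed the filter through U87, where its FPKM was 1.71 and 1.53. In U251 it was at 0.16 in Control and 0.72 in Bru, a log2 ratio of 1.64 that became 0.56 with a pseudocount of 1.

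The lists of carbon supply, of the carboxylase and of the mitochondria held no gene lower past 2-fold in either line. Of the carbon and NADPH supply genes, 9 of 12 passed, with medians of -0.34 and -0.08. The mitochondrial citrate carrier SLC25A1, which delivers the substrate of ACLY, had FPKM values of 48.4 and 33.7 in U251 and of 35.7 and 25.5 in U87 (log2 ratios -0.52 and -0.48). IDH1, a source of cytosolic NADPH, had -0.39 and -0.55, and ACSS3 had -0.52 and -0.19. Of the carboxylase partner ACACB and the regulators of the carboxylase, 4 of 7 passed, with medians of 0.08 and -0.15. Among them MID1IP1, which promotes polymerisation of the carboxylase, had 0.08 and -0.52, the kinase subunit PRKAA1 had 0.18 and 0.08, and HLCS, which attaches biotin, had -0.37 and -0.30.

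Mitochondrial fatty acid synthesis, a separate pathway that feeds lipoic acid formation, had 7 of 9 genes past the filter and medians of 0.19 and -0.11, the latter becoming 0.09 over the 6 genes whose FPKM averaged 1 or more in U87 itself. Its gene LIAS, the lipoic acid synthase, was higher past 2-fold in U251, at 0.82 and 2.31, against 1.51 and 2.20 in U87 (log2 ratios 1.38 and 0.52). With a pseudocount of 1 its U251 ratio was 0.86, inside 2-fold. OXSM had 0.63 and -0.18, and the acyl carrier protein NDUFAB1 had 0.19 and 0.29. Of the fatty acid oxidation genes, which break chains down, 21 of 22 passed, 0 were past 2-fold in either line, and the medians were -0.07 and 0.00. The 3 of them with the largest mean absolute log2 ratio over both lines were HADH (-0.81 and -0.16), HSD17B4 (-0.77 and -0.42) and ACADS (-0.52 and -0.36). The lists of breakdown and of cytosolic synthesis thus stood apart in their medians, which is a description of these 4 libraries.

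Of the protein-coding genes past the filter, the 5 nearest to SCD in the plane of the 2 log2 ratios were SEMA6B, FADS2, RGS4, INSIG1 and PTN, by the straight-line distance in log2 units over the 2 lines. SEMA6B, a semaphorin, lay 0.20 from SCD, with log2 ratios of -2.36 and -1.69. FADS2 lay 0.32 and INSIG1 0.60 from it. RGS4, a regulator of G protein signalling, lay 0.49 away (-2.38 and -1.37), and the growth factor PTN 0.68 away (-2.40 and -1.18). The FPKM of RGS4 was 269 in U251 Control and 3.06 in U87 Control, whereas SCD was at a like level in both, so nearness in this plane is nearness of ratios and not of levels.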

How the data were processed

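Total RNA of U251 and U87 cells, as Control and after Bru, was sequenced as paired-end reads from NEB Next Ultra libraries. For each of the 4 libraries the authors deposited a table of FPKM and gene length in bases, and every FPKM column was used. The submitters' processing notes name HISAT2 2.0.5, StringTie 1.3.3b, featureCounts 1.5.0-p3, DESeq2 1.16.1 and hg18, with no role given. The deposited coordinates equal those of GENCODE 29 (GRCh38) for 58735 of 58735 genes, and are given on that build. How the authors set the library size inside the FPKM and the strand setting of counting are not given in the sources used here.

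FPKM times gene length was a whole multiple of 1 step per library for 100% of values above 0, within 0.001 reads. This gave the reads per gene and the library sizes inside the FPKM, which were 20974002, 18533374, 18070193 and 17406238 for U251 Control, U251 Bru, U87 Control and U87 Bru. At this depth, 3 reads on a gene of 1 kilobase are an FPKM of 0.143 to 0.172. No count model was fitted, since no group has a replicate.

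The log2 ratio was taken on FPKM + 0.1 where the FPKM averaged 1 or more over the libraries, and called past an absolute value of 1. Alternatives were a pseudocount of 1 or 0.01, other scalings, filters and limits. The 10 genes and all lists were chosen with earlier results of these data known. Named in the text are the 10 genes, the 3 genes of each list with the largest mean absolute ratio, any list gene past 2-fold in both lines and the 5 genes nearest to SCD. ABCA1, FABP5, AGPAT2, CYB5R1, FADS3 and the genes sharing sequence or exons with the 10 were added after their values were seen. Promoters were searched in the RefSeq windows of GRCh38.p14. Python 3.11.15 with numpy 2.4.6, pandas 2.3.3, scipy 1.17.1 and matplotlib 3.10.9 was used, and the scripts were tested on simulated data.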

Additional observations from a re-analysis of the deposited data

Results flagged for a closer look

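The median log2 ratio of 3 related lists had opposite signs in U251 and U87, and these differences were not tested. The medians of all genes were themselves not 0, at -0.03 and -0.04. For the carboxylase and its regulators the median was 0.08 in U251 and -0.15 in U87, a difference of 0.23 over 4 genes. With a minimum mean FPKM of 0.1, 6 genes had medians of 0.06 and -0.32. For mitochondrial fatty acid synthesis it was 0.19 and -0.11, a difference of 0.29, and the U87 median was 0.09 over the genes whose FPKM averaged 1 or more in U87 itself. For fatty acid oxidation the median was -0.07 and 0.003, a difference of -0.072, and the sign of so small a U87 median carries no weight.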

How the results depend on the processing

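With 1 library per group no library could be left out. No paired analysis was possible because each group has 1 library and the labels carry no replicate numbers. Under each of the pseudocounts and scalings tried, all 10 genes kept a log2 ratio below 0 in both lines, and SCD and FADS2 kept their 2-fold calls in both. The ratio of SCD ranged from -2.47 to -2.38 in U251 and from -1.86 to -1.80 in U87. The median of the 10 genes in U251, -1.15, became -1.06 with a pseudocount of 1, -1.06 with scaling to the 75th percentile, -1.07 with total reads without mitochondrial genes and -1.06 with total reads on all genes. The last setting, adding up the reads of FADS1 and FADS2, and a minimum FPKM within the line itself for the related lists were chosen after seeing the data. The line's own minimum turned the U87 median of mitochondrial fatty acid synthesis from -0.11 to 0.093, since it left out 1 gene, and moved the U251 median of acyl-CoA synthetases and binding from -0.47 to -0.67. A pseudocount of 1 ended the U251 calls of LIAS, DGAT2, ABCA1 and FABP3. At 1.5-fold, 4 of the 10 genes were lower in U87.

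Counts over all genes moved more. They were 1140 genes past 2-fold in U251 and 432 in U87. A pseudocount of 1 gave 616 and 190, a whole counting interval past 2-fold 501 and 56, and 1.5-fold 3471 and 1173. No filter gave 4963 and 4335 of 31871 genes, a minimum mean FPKM of 0.1 gave 3727 and 2801, one of 5 gave 473 and 83, and protein-coding genes alone gave 700 and 96. These settings change the genes tested or the limit itself. Of the U251 calls, 38.2% were higher in Bru, and this share was 48.8% with the 75th percentile, 47.7% with total reads without mitochondrial genes and 48.9% with total reads on all genes. No setting moved the median of all genes by over 0.1.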
